A study of Homo sapiens with 8 samples.

Results

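Glycolysis, lactate and hypoxia-response genes were followed in HCT116 cells, an established human colorectal carcinoma line, after exposure to histone deacetylase inhibitors. The set was a list of 38 gene names, with no threshold on the measured values. A gene was represented by the probe set whose annotation named that gene alone and whose mean over the 8 arrays was highest. This gave 35 of the 38 genes, out of 19775 genes with such a probe set on the array. SLC16A1, SLC16A3 and CA9 were not analysed here. The cultures received largazole at 20 nM, FK228 (romidepsin) at 20 nM, SAHA (vorinostat) at 2 µM or vehicle for 10 h, and each group had 2 Affymetrix U133 2.0 arrays. Largazole is a cyclic depsipeptide with a thioester, FK228 a bicyclic depsipeptide with a disulfide, and SAHA a hydroxamic acid. All groups were the same line, grown in DMEM with serum, and the labels name no change of oxygen in any group. The labels call the experiment a duplicate without saying what was repeated, so the p-values measure the spread between these samples, which may be technical.

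Glycolysis takes up glucose through SLC2A transporters, phosphorylates it with hexokinase and carries it through phosphofructokinase, aldolase and pyruvate kinase to pyruvate. Pyruvate is then reduced to lactate by lactate dehydrogenase or enters the mitochondrion, where pyruvate dehydrogenase kinases (PDK) switch off the complex that would oxidise it. Hypoxia-inducible factor (HIF) raises many of these genes when oxygen is low, and the prolyl hydroxylases of the EGLN family mark HIF for destruction when oxygen is present. Colorectal carcinoma cells are known for high glycolysis also in normal oxygen.

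Values were deposited on the log2 scale, so a difference of 1 is 2-fold. Median level lay between 4.47 and 4.51 on the 8 arrays. A probe set was tested when its second-highest value reached 4.49, the median of all values, and all 35 genes passed that filter, which does not use the groups. A difference was called at an adjusted p under 0.05 (limma, Benjamini-Hochberg over 28985 probe sets). Of 12 markers of colon epithelial lines, 7 had a vehicle level at or above the upper quartile of all values (6.87), among them EPCAM (12.58) and KRT18 (12.83), while KRT20 (3.94), VIL1 (4.49) and LGALS4 (3.87) lay under the filter value or level with it. None (0) of 8 leukocyte markers and 1 of 10 fibroblast and endothelial markers, COL1A1, reached that quartile with vehicle. Of 11 tested colon markers, 2 rose and 3 fell with largazole and with SAHA, and 1 rose and 3 fell with FK228. The falls were CLDN4 (-0.64, -0.80 and -1.66 with largazole, SAHA and FK228), ELF3 (-0.34, -0.55 and -0.80), CDX2 with largazole (-0.82) and SAHA (-0.90), and EPCAM with FK228 (-0.46). The rises were CDH1 (0.74, 0.78 and 0.69 with largazole, SAHA and FK228) and KRT19 with largazole (0.37) and SAHA (0.47). Of 2 tested leukocyte markers, HLA-DRA rose with each compound (1.23, 1.02 and 1.08), and of 5 tested fibroblast and endothelial markers COL1A1 rose with each (1.27, 0.73 and 0.60) and PDGFRB fell with SAHA (-0.37). The log2 of the summed level of the leukocyte list was 6.996 to 7.12 on vehicle, 7.46 to 7.53 on largazole, 7.34 to 7.48 on SAHA and 7.39 to 7.44 on FK228 arrays, and that of the fibroblast and endothelial list 8.28 to 8.30, 8.88 to 9.08, 8.52 to 8.70 and 8.52 to 8.64. The leukocyte marker PTPRC stayed between 2.47 and 2.65 in the group means. The part of these shifts in the results was not tested. Of the 35 genes studied, 8 lay in the top 1% of probe sets by mean level (ALDOA, TPI1, GAPDH, PGK1, PGAM1, ENO1, LDHA and LDHB), and 1 of these 8, TPI1, was called with any compound. With a robust intensity-trended prior, PGAM1 and LDHB were called as well.

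With FK228, ALDOC rose most and ADM fell most among the 35 genes. With largazole, 7 of the 35 genes rose and 4 fell, where 45.2% of all 13373 tested genes were called, 21.9% higher and 23.2% lower. With SAHA, 8 rose and 4 fell, against 47.4% of all genes called, 22.1% higher and 25.2% lower. With FK228, 12 rose and 5 fell, against 52.8% of all genes called, 25.7% higher and 27.0% lower. The share of the 35 genes called was thus 31.4% with largazole, 34.3% with SAHA and 48.6% with FK228, in each case a smaller share than over all genes. Their median difference from vehicle was 0.042 with largazole, 0.053 with SAHA and 0.069 with FK228, beside 0.0018, -0.019 and 0.013 over all tested genes. The comparisons share their vehicle arrays, so they are not independent of each other.

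**Figure D1:**
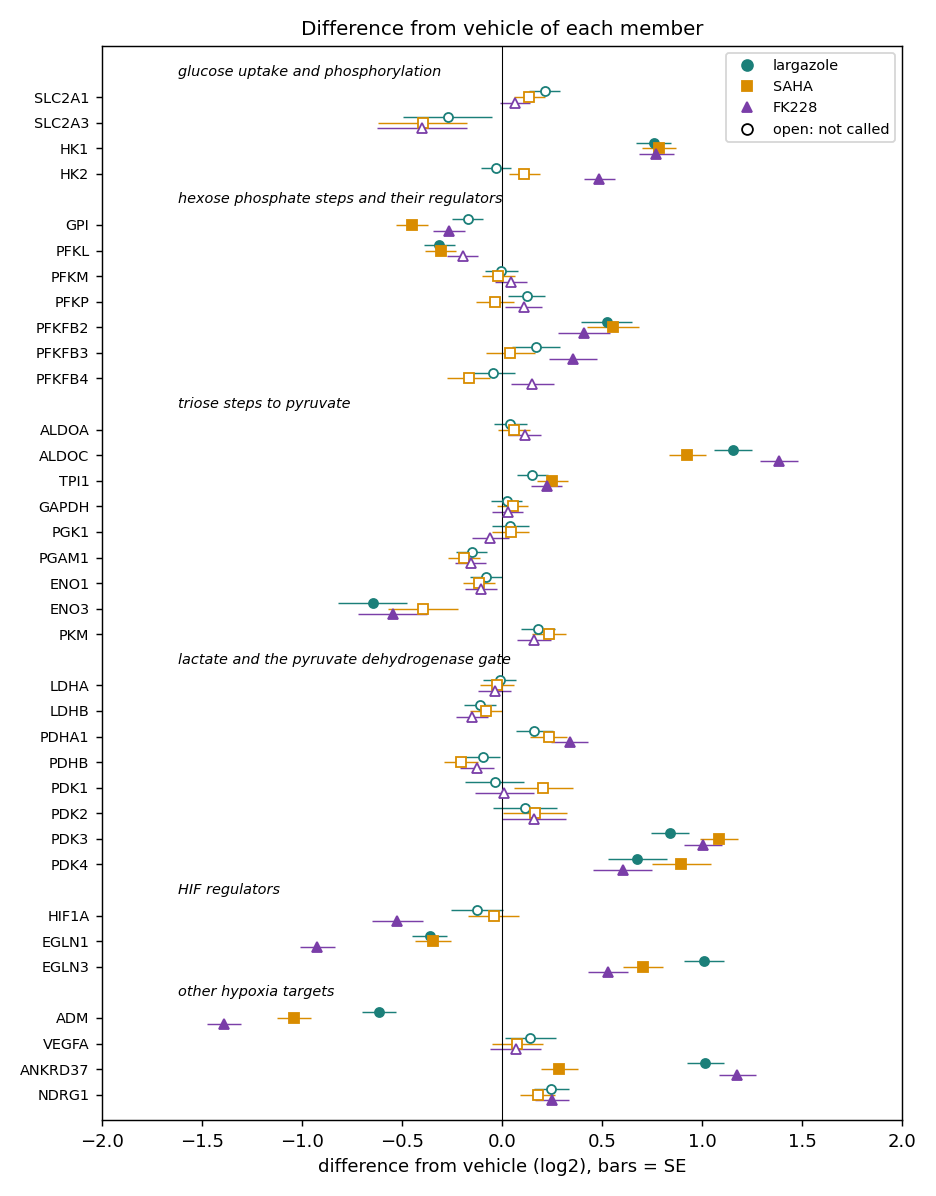
Difference from vehicle on the log2 scale (x axis, bars are the SE) of the 35 genes (y axis, grouped by role) with largazole, SAHA and FK228, 2 arrays a group. Filled symbols were called, open ones were not; ADM with FK228 lies lowest at -1.39 and ALDOC with FK228 highest at 1.38, while GAPDH, PGK1 and LDHA lie close to 0.

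Some of these counts rested on single arrays. The 4 falls with largazole became 2 without largazole replicate 1, 1 without largazole replicate 2 and 1 without vehicle replicate 1. The 4 falls with SAHA became 2 without SAHA replicate 2 or without vehicle replicate 1, and the 8 rises became 5 without SAHA replicate 1. With FK228 the 12 rises became 7 without vehicle replicate 1, and the 5 falls became 2 without FK228 replicate 2, 2 without vehicle replicate 1 and 3 without vehicle replicate 2. The direction of the called genes below did not change with any array left out.

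Calls made with all 3 compounds covered 7 genes that rose, HK1, PFKFB2, ALDOC, PDK3, PDK4, EGLN3 and ANKRD37, and 2 that fell, ADM and EGLN1. FK228 alone among the compounds gave a call for HK2, PFKFB3, PDHA1, HIF1A and NDRG1, of which only HK2 was also called between FK228 and largazole. GPI, PFKL, TPI1 and ENO3 were called with 2 of the compounds, and 17 genes with none. Over all tested genes 17.6% were called higher with all 3 compounds, 20% lower with all 3 and 39.2% with none, beside 20%, 5.71% and 48.6% of the 35.

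**Figure D2:**
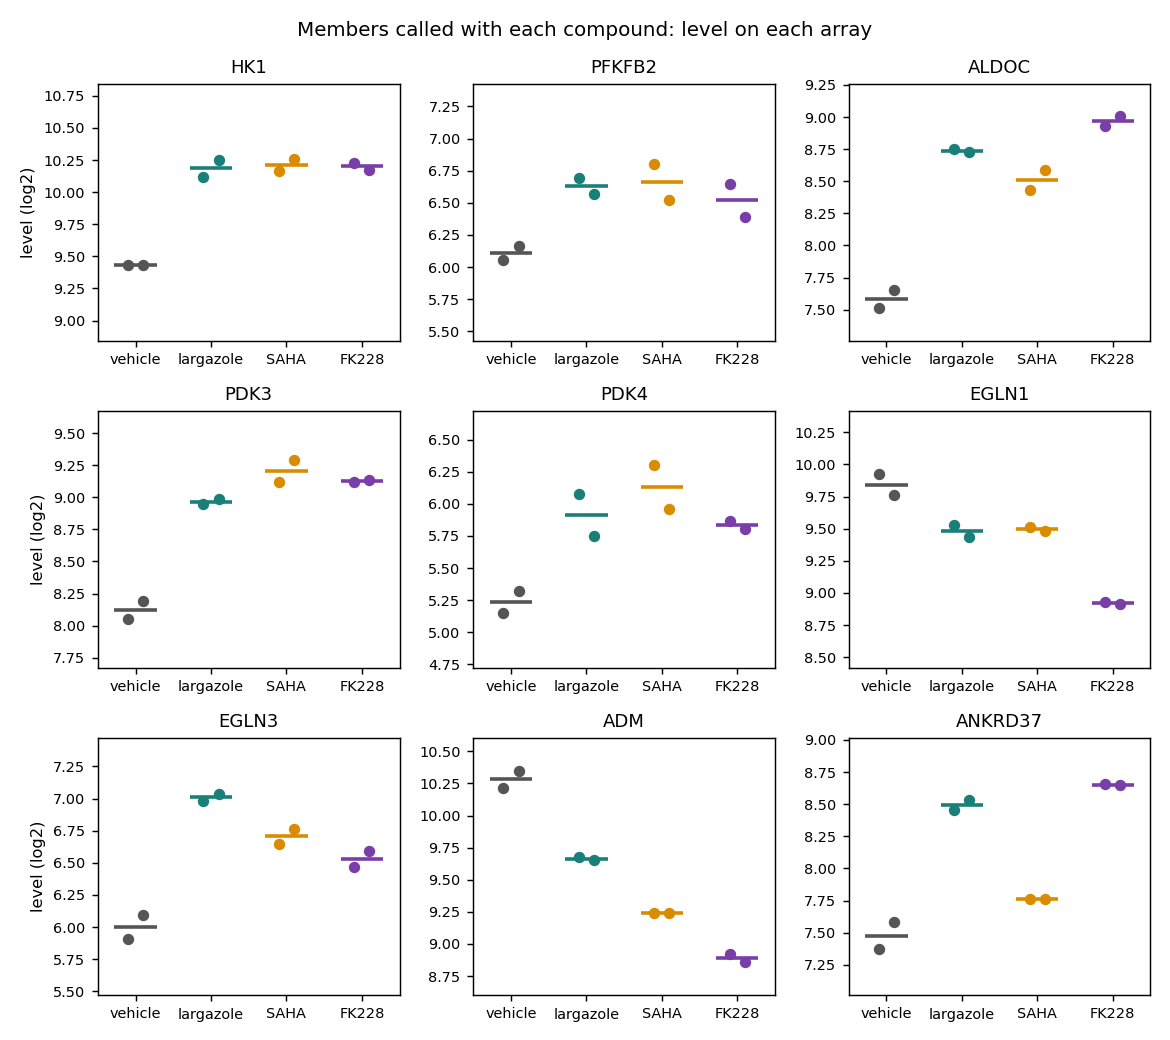
Level (log2, y axis) on each array, by group (x axis), of the 9 genes called with each compound; points are arrays, lines are group means and every panel spans the same log2 range. The vehicle arrays lie below all 6 treated arrays for the 7 genes that rose and above them for ADM and EGLN1.

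At glucose entry SLC2A1 and SLC2A3 were not called, HK1 was called with each compound and HK2 with FK228 only. SLC2A1, the main glucose transporter of proliferating cells, measured 8.37 and 8.41 with vehicle, 8.58 and 8.62 with largazole, 8.52 and 8.53 with SAHA and 8.45 and 8.47 with FK228. Its treated arrays all lay above vehicle, yet by small amounts, and no difference was called (largazole 0.21 ± 0.076, adjusted p = 0.057; 95% confidence interval with FK228 -0.11 to 0.24). The largazole difference was close to the threshold and was called under 6 alternatives (adjusted p = 0.0166 to 0.0408). SLC2A3, a high-affinity transporter, was near the filter value, at 5.17 and 5.33 with vehicle, 4.98 and 4.98 with largazole, 4.73 and 4.98 with SAHA and 5.24 and 4.46 with FK228. The 2 FK228 arrays of SLC2A3 were far apart, one between the vehicle arrays and the other the lowest of all, and none of its differences was called (-0.27, -0.40 and -0.40 with largazole, SAHA and FK228). Its other tested probe set, 202497_x_at, measured 4.72 and 4.63 with vehicle, 4.48 and 4.61 with largazole, 4.06 and 4.28 with SAHA and 3.99 and 4.15 with FK228, so the SAHA and FK228 arrays lay under vehicle. That probe set passed the filter only through its vehicle arrays, so its differences (-0.50 with SAHA and -0.61 with FK228) are given with no test. With both probe sets averaged SLC2A3 was at -0.45 with SAHA and -0.50 with FK228. That average takes in the probe set that passed only through vehicle, so it is likewise given with no test. Without FK228 replicate 1 the FK228 difference of SLC2A3 was -0.79, resting on the 1 FK228 array left, the lowest of all. The SAHA difference of -0.40 was called without either FK228 array, which enter that comparison only through the shared estimate of the spread.

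HK1, the broadly expressed hexokinase, measured 9.43 and 9.43 with vehicle, 10.12 and 10.25 with largazole, 10.17 and 10.26 with SAHA and 10.23 and 10.17 with FK228. All 6 treated arrays stood together, well above the 2 vehicle arrays. The rise was 0.76 ± 0.086 with largazole (SE, n = 2; adjusted p = 0.000349), 0.78 ± 0.086 with SAHA (adjusted p = 0.000262) and 0.77 ± 0.086 with FK228 (adjusted p = 0.000202), about 1.71-fold in the last case. The FK228 and largazole arrays of HK1 overlapped.

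HK2, the HIF-inducible hexokinase that is raised in many tumours, differed in direction between probe sets. The probe set with the highest mean, 202934_at, measured 9.40 and 9.41 with vehicle, 9.39 and 9.35 with largazole, 9.50 and 9.53 with SAHA and 9.90 and 9.87 with FK228. Only the FK228 arrays stood apart on it, higher by 0.49 ± 0.076 (adjusted p = 0.00114), with largazole at -0.031 and SAHA at 0.11, neither called. Probe set 222305_at, at 5.87 and 5.64 with vehicle, fell to 4.58 and 4.77 with largazole, 4.64 and 5.05 with SAHA and 4.90 and 4.20 with FK228. Probe set 239410_at, at 5.37 and 5.01 with vehicle, measured 4.45 and 4.02, 4.08 and 4.51, and 4.07 and 4.14 in the same order. On both of these dim probe sets every treated array lay under both vehicle arrays. On 222305_at each fall was called (-1.08, -0.91 and -1.20 with largazole, SAHA and FK228, adjusted p at most 0.0145). Probe set 239410_at passed the filter only through its vehicle arrays, so its differences (-0.95, -0.89 and -1.08) are given with no test. With FK228, 202934_at was thus called higher and 222305_at lower.

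**Figure D3:**
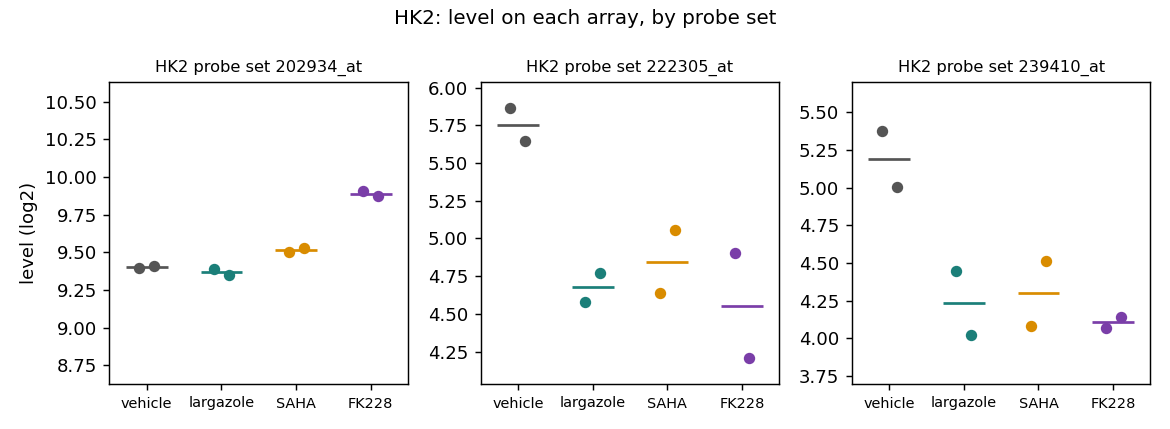
Level (log2, y axis) of the 3 HK2 probe sets on each array, by group (x axis); points are arrays, lines are group means and each panel spans the same log2 range. On 202934_at the FK228 arrays are highest, whereas on 222305_at and 239410_at all treated arrays lie below vehicle.

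Among the hexose phosphate steps, GPI and PFKL fell with 2 compounds each and the regulator PFKFB2 rose with all 3. GPI, glucose-6-phosphate isomerase, measured 11.57 and 11.64 with vehicle, 11.44 and 11.43 with largazole, 11.12 and 11.19 with SAHA and 11.33 and 11.36 with FK228. Treated arrays all lay under vehicle, and the fall was called with SAHA (-0.45 ± 0.079, adjusted p = 0.00252) and FK228 (-0.27 ± 0.079, adjusted p = 0.0241), with largazole at -0.17 (adjusted p = 0.123). The FK228 call of GPI ended with any FK228 or vehicle array left out (FK228 replicate 1, adjusted p = 0.0935; FK228 replicate 2, 0.0665; vehicle replicate 1, 0.0569; vehicle replicate 2, 0.112), and at equal ribosomal protein medians (adjusted p = 0.0608).

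PFKL, the liver-type phosphofructokinase, measured 7.84 and 7.78 with vehicle, 7.48 and 7.51 with largazole, 7.52 and 7.49 with SAHA and 7.59 and 7.64 with FK228. It fell with largazole (-0.31 ± 0.077, adjusted p = 0.0136) and SAHA (-0.31 ± 0.077, adjusted p = 0.0137), and with FK228 its difference was -0.20 (adjusted p = 0.0695). These calls ended without vehicle replicate 1 (adjusted p = 0.0723 with largazole and 0.0722 with SAHA), without either largazole array (0.0804 for replicate 1 and 0.0584 for replicate 2) and without SAHA replicate 2 (0.0565). The muscle-type PFKM (10.69 to 10.80 over the arrays) and the platelet-type PFKP (11.06 to 11.35), the other phosphofructokinases, were called with no compound, and their vehicle arrays lay among or close to the treated ones. PFKM differed by 0.045 with FK228 and PFKP by 0.11.

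The PFKFB enzymes make or remove fructose 2,6-bisphosphate, the main activator of phosphofructokinase. PFKFB2 measured 6.05 and 6.16 with vehicle, 6.69 and 6.57 with largazole, 6.80 and 6.52 with SAHA and 6.65 and 6.39 with FK228. Both vehicle arrays lay under all treated arrays, and the rise was 0.52 ± 0.13 with largazole (adjusted p = 0.0138), 0.55 ± 0.13 with SAHA (adjusted p = 0.00982) and 0.41 ± 0.13 with FK228 (adjusted p = 0.0306). Its probe sets differed, with 209992_at higher by 1.07 with FK228 and 207931_s_at at 0.11 and not called. Of the 3 other tested PFKFB2 probe sets, 0 were called with largazole, 1 with SAHA and 1 with FK228. Single arrays also decided PFKFB2: the calls with largazole, SAHA and FK228 ended without vehicle replicate 1 (adjusted p = 0.0762, 0.0584 and 0.139), and each ended without replicate 1 of its own compound (0.0813, 0.0594 and 0.164) and, with FK228, without vehicle replicate 2 (0.0641).

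PFKFB3, the inducible isozyme with the strongest kinase activity, measured 8.51 and 8.29 with vehicle, 8.70 and 8.43 with largazole, 8.50 and 8.38 with SAHA and 8.79 and 8.72 with FK228. Its vehicle arrays were 8.51 and 8.29, a spread as wide as most of its differences, and only the FK228 difference was called (0.36 ± 0.12, adjusted p = 0.0423). That call ended without FK228 replicate 1 (adjusted p = 0.149), FK228 replicate 2 (0.0821), vehicle replicate 2 (0.217) or either SAHA array (0.0538), which enter through the shared estimate of the spread. The hypoxia-inducible PFKFB4 ranged over 7.90 to 8.34 and was called with none.

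At the triose steps 6 of 9 genes were called with no compound, TPI1 and ENO3 with 2 compounds each, and the brain-type aldolase with all 3. ALDOC, that isozyme, measured 7.51 and 7.65 with vehicle, 8.75 and 8.73 with largazole, 8.43 and 8.59 with SAHA and 8.93 and 9.01 with FK228. The 2 vehicle arrays lay far below the others, and ALDOC rose by 1.16 ± 0.094 with largazole (adjusted p = 7.4e-05), 0.93 ± 0.094 with SAHA (adjusted p = 0.000177) and 1.38 ± 0.094 with FK228 (adjusted p = 1.78e-05), which is 2.61-fold. ALDOA, the aldolase that carries most of the flux in muscle and many tumours, measured 13.08 and 13.11 with vehicle, 13.09 and 13.19 with largazole, 13.12 and 13.19 with SAHA and 13.22 and 13.20 with FK228, and was not called (95% confidence interval with FK228 -0.076 to 0.30). The interval of ALDOC (1.16 to 1.60) does not overlap it.

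GAPDH, glyceraldehyde-3-phosphate dehydrogenase, measured 13.90 and 13.92 with vehicle, 13.90 and 13.97 with largazole, 13.96 and 13.97 with SAHA and 13.97 and 13.91 with FK228. All 8 values lay within a narrow band, and no compound moved it by more than 0.053 (95% confidence interval with SAHA -0.13 to 0.23). PGK1, phosphoglycerate kinase, measured 12.74 and 12.62 with vehicle, 12.74 and 12.71 with largazole, 12.77 and 12.68 with SAHA and 12.70 and 12.55 with FK228. Each treated group overlapped vehicle. It was not called, at 0.042 with largazole, 0.043 with SAHA and -0.058 with FK228 (95% confidence interval with FK228 -0.27 to 0.16). The 4 other tested PGK1 probe sets were not called with any compound either. These are textbook HIF targets, as are ALDOA, ENO1 and LDHA.

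TPI1, triose phosphate isomerase, measured 12.56 and 12.58 with vehicle, 12.70 and 12.74 with largazole, 12.78 and 12.85 with SAHA and 12.78 and 12.80 with FK228. The treated arrays lay slightly above vehicle, and a rise was called with SAHA (0.25 ± 0.078, adjusted p = 0.0319) and FK228 (0.22 ± 0.078, adjusted p = 0.0456), at levels where the gene is among the brightest on the array. Neither call was firm: each ended with any vehicle array or array of its own compound left out (adjusted p = 0.0572 to 0.127 over SAHA replicates 1 and 2 and vehicle replicates 1 and 2 for SAHA, and 0.116 to 0.147 over FK228 replicates 1 and 2 and vehicle replicates 1 and 2 for FK228), with either largazole array left out (0.0576 and 0.0765), for FK228 with either SAHA array left out (0.0529), and on other TPI1 probe sets, one of which read -0.021 with FK228.

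PGAM1, phosphoglycerate mutase (12.61 to 12.85), and ENO1, the ubiquitous enolase (12.91 to 13.07), were lower on all 6 treated arrays than on vehicle, by -0.19 and -0.12 with SAHA, and were called with none. ENO3, muscle enolase, was dim and variable, at 5.72 and 5.52 with vehicle, 4.96 and 4.98 with largazole, 5.28 and 5.16 with SAHA and 5.36 and 4.79 with FK228. It lay under vehicle on every treated array and was called with largazole (-0.65 ± 0.17, adjusted p = 0.0195) and FK228 (-0.55 ± 0.17, adjusted p = 0.0317), while with SAHA it was at -0.40 (adjusted p = 0.104). Without vehicle replicate 1 neither call held (adjusted p = 0.106 and 0.154); the largazole call also ended without largazole replicate 1 (0.0795) or replicate 2 (0.0723), and the FK228 call without vehicle replicate 2 (0.0544) or without FK228 replicate 2 (0.135), which brought the value to -0.26. Without either FK228 array the SAHA difference of ENO3 was called, and those arrays enter that comparison only through the shared estimate of the spread.

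PKM, pyruvate kinase, measured 9.85 and 9.97 with vehicle, 10.05 and 10.13 with largazole, 10.15 and 10.14 with SAHA and 10.05 and 10.09 with FK228. All treated arrays were above vehicle by a small margin, and the differences missed the threshold (largazole 0.18 ± 0.084, adjusted p = 0.13; SAHA 0.24 ± 0.084, adjusted p = 0.0537; FK228 0.16 ± 0.084, adjusted p = 0.155). On a dimmer PKM probe set, 213700_s_at, the largazole difference was 0.46 and called (adjusted p = 0.00244), and with both probe sets averaged it was 0.32 (adjusted p = 0.00606).

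At the fork between lactate and oxidation, neither lactate dehydrogenase was called and the pyruvate dehydrogenase kinases PDK3 and PDK4 rose. LDHA, which favours lactate formation, measured 13.46 and 13.35 with vehicle, 13.41 and 13.38 with largazole, 13.39 and 13.38 with SAHA and 13.42 and 13.32 with FK228. Every group overlapped, and the 95% confidence intervals were -0.21 to 0.18 with largazole, -0.22 to 0.17 with SAHA and -0.23 to 0.16 with FK228. LDHB, which favours the reverse reaction, ranged over 13.38 to 13.60 and was called with none (-0.15 with FK228, adjusted p = 0.156). The FK228 difference of LDHB was called with a robust intensity-trended prior (limma, adjusted p = 0.0103).

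PDK3, a pyruvate dehydrogenase kinase that is HIF-inducible in tumour cells, measured 8.05 and 8.20 with vehicle, 8.94 and 8.98 with largazole, 9.12 and 9.29 with SAHA and 9.12 and 9.13 with FK228. Its vehicle arrays were the lowest by a wide margin. The rise was 0.84 ± 0.094 with largazole (adjusted p = 0.000325), 1.08 ± 0.094 with SAHA (adjusted p = 8.68e-05) and 1.00 ± 0.094 with FK228 (adjusted p = 8.34e-05), or 2.12-fold with SAHA. The 4 other tested PDK3 probe sets were called higher with SAHA and FK228 and 3 of the 4 with largazole, the exception being 230085_at (-0.0079). On that probe set FK228 was above largazole (0.54, adjusted p = 0.0166).

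PDK4, the isozyme induced by fasting, measured 5.15 and 5.32 with vehicle, 6.07 and 5.75 with largazole, 6.30 and 5.96 with SAHA and 5.87 and 5.81 with FK228. All treated arrays were above vehicle, with replicates further apart than for PDK3, and the rises were 0.68 ± 0.15 with largazole (adjusted p = 0.00818), 0.90 ± 0.15 with SAHA (adjusted p = 0.00194) and 0.60 ± 0.15 with FK228 (adjusted p = 0.011). Without vehicle replicate 1 the largazole and FK228 calls ended (adjusted p = 0.0544 and 0.0705), and without largazole replicate 1 so did the largazole call (0.0571). PDK1, the isozyme most often named as a HIF target, measured 7.12 and 6.68 with vehicle, 6.98 and 6.75 with largazole, 7.11 and 7.11 with SAHA and 6.91 and 6.92 with FK228, with the vehicle arrays further apart than those of any treated group. It was called with none, although the SAHA difference was 0.43 without vehicle replicate 1, resting on the 1 vehicle array left. PDK2, the widely expressed isozyme, ranged over 7.04 to 7.45 and was not called, while its other tested probe set, 213724_s_at, rose by 0.53 with FK228 (adjusted p = 0.00447).

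PDHA1, the subunit of pyruvate dehydrogenase that the kinases phosphorylate, measured 10.89 and 11.01 with vehicle, 11.09 and 11.13 with largazole, 11.12 and 11.25 with SAHA and 11.23 and 11.34 with FK228. The 6 treated arrays were above both vehicle arrays, and the rise was called with FK228 (0.34 ± 0.092, adjusted p = 0.0167) and not with largazole (0.16) or SAHA (0.23). That call ended without FK228 replicate 2 (adjusted p = 0.0875) or vehicle replicate 1 (0.0978), whereas on probe set 200979_at the rise was called with largazole, SAHA and FK228 (0.43, 0.53 and 0.53). PDHB, the partner subunit, ranged over 11.14 to 11.39 and was called with none.

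The HIF regulators moved apart, with EGLN1 lower and EGLN3 higher. HIF1A, the oxygen-regulated subunit of HIF, measured 11.64 and 11.44 with vehicle, 11.46 and 11.38 with largazole, 11.54 and 11.46 with SAHA and 11.19 and 10.85 with FK228. The FK228 arrays were the lowest 2 of the 8 and differed from each other by more than the vehicle arrays did. The fall with FK228 was -0.52 ± 0.13 (adjusted p = 0.0105), while largazole (-0.13) and SAHA (-0.042) were not called. It ended without FK228 replicate 2 (adjusted p = 0.0558) or vehicle replicate 1 (0.0713). HIF1A activity is set mainly by protein stability, which arrays do not measure.

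EGLN1 (PHD2), the main HIF prolyl hydroxylase in normal oxygen, measured 9.92 and 9.76 with vehicle, 9.52 and 9.43 with largazole, 9.51 and 9.48 with SAHA and 8.93 and 8.91 with FK228. Levels fell in steps, with both largazole and SAHA below vehicle and FK228 below those. The change was -0.36 ± 0.089 with largazole (adjusted p = 0.0134), -0.35 ± 0.089 with SAHA (adjusted p = 0.0151) and -0.92 ± 0.089 with FK228 (adjusted p = 9.49e-05). The 2 other tested EGLN1 probe sets were called lower with FK228 (-0.57 and -0.63) and not with largazole or SAHA. Without vehicle replicate 1 the largazole and SAHA calls ended (adjusted p = 0.0846 and 0.0942), as they did without largazole replicate 2 (0.0888) and without SAHA replicate 2 (0.0626), respectively. With its probe sets averaged EGLN1 was at -0.20 with SAHA and not called (adjusted p = 0.063).

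EGLN3 (PHD3), the hydroxylase that HIF itself induces most strongly, measured 5.91 and 6.10 with vehicle, 6.98 and 7.04 with largazole, 6.65 and 6.76 with SAHA and 6.47 and 6.59 with FK228. No treated array overlapped vehicle, and largazole was highest. The rise was 1.01 ± 0.10 with largazole (adjusted p = 0.00018), 0.70 ± 0.10 with SAHA (adjusted p = 0.000875) and 0.53 ± 0.10 with FK228 (adjusted p = 0.00301), and its other, dimmer probe set was also called higher with all 3 compounds.

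Among the other hypoxia targets, ADM fell, ANKRD37 rose and VEGFA was not called. ADM encodes adrenomedullin, a vasodilator peptide that hypoxia induces, and measured 10.21 and 10.35 with vehicle, 9.67 and 9.66 with largazole, 9.24 and 9.24 with SAHA and 8.92 and 8.86 with FK228. The groups were fully separate, with vehicle highest, then largazole, SAHA and FK228. ADM fell by 1.53-fold with largazole (-0.62 ± 0.084, adjusted p = 0.000809), 2.06-fold with SAHA (-1.04 ± 0.084, adjusted p = 6.17e-05) and 2.62-fold with FK228 (-1.39 ± 0.084, adjusted p = 1.08e-05).

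ANKRD37, an ankyrin-repeat gene with a direct HIF response, measured 7.37 and 7.58 with vehicle, 8.46 and 8.53 with largazole, 7.77 and 7.76 with SAHA and 8.66 and 8.65 with FK228. Largazole and FK228 arrays were about 1 log2 unit above vehicle and the SAHA arrays only just above it. The rise was 1.02 ± 0.093 with largazole (adjusted p = 0.000127) and 1.18 ± 0.093 with FK228 (adjusted p = 3.62e-05), beside 0.29 ± 0.093 with SAHA at its own dose (adjusted p = 0.0386). The SAHA call ended with any 1 of the 8 arrays left out except vehicle replicate 2 (adjusted p = 0.0535 to 0.211), the highest value being that without vehicle replicate 1, where the difference was 0.18.

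VEGFA, the angiogenic growth factor, measured 8.77 and 8.60 with vehicle, 8.94 and 8.72 with largazole, 8.80 and 8.73 with SAHA and 8.90 and 8.61 with FK228. All groups overlapped vehicle, and the 95% confidence intervals were -0.15 to 0.44 with largazole, -0.22 to 0.37 with SAHA and -0.23 to 0.36 with FK228. None of its 4 tested probe sets was called. NDRG1, a stress and hypoxia marker, measured 9.63 and 9.62 with vehicle, 9.79 and 9.95 with largazole, 9.79 and 9.81 with SAHA and 9.91 and 9.83 with FK228. All its treated arrays lay above vehicle, by a margin at the threshold, with 0.25 ± 0.087 called with FK228 (adjusted p = 0.0454) and 0.25 ± 0.087 missed with largazole (adjusted p = 0.0548). The FK228 call ended with any of the 8 arrays left out (adjusted p = 0.055 to 0.18).

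HIF binds the core ACGTG or GCGTG, so the 250 bases before each gene's start were searched for these 5 letters on both strands (RefSeq, GRCh38.p14). The table matched 31 of the 35 genes by gene ID. Either core was found in 19 of these 31 promoters (61.3%), beside 56.2% of the promoters of 10756 tested genes and 43.1% of all 27305. ACGTG alone was found in 11 (35.5%, beside 22.8% of tested genes), of which 5 held it within the palindrome CACGTG, which counts once on each strand. A match was found in 12 of 16 promoters of genes called with at least 1 compound and in 7 of 15 of those called with none; these are descriptions of letters and not of binding. Printed here are the 4 genes with a match and the largest called changes, followed by LDHA, which was chosen after its values were seen because it holds 5 matches and was called with none. PDHB, also called with none, holds more matches than LDHA (3 of ACGTG and 3 of GCGTG) and is not printed. The bases run 5′ to 3′ on the gene's strand, and capitals mark the matches.
ADM, chr11:10304823-10305072, plus strand: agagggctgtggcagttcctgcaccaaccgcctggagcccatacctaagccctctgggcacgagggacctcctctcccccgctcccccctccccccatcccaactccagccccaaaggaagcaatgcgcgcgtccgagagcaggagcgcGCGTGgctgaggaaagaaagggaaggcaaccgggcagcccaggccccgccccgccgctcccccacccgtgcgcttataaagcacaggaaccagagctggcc
ALDOC, chr17:28576896-28577145, minus strand: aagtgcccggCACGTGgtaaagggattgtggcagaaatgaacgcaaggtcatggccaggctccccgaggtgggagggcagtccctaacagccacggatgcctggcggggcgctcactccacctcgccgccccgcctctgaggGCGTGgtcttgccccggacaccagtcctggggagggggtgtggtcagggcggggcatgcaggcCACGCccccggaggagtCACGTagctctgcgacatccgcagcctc
ANKRD37, chr4:185396591-185396840, plus strand: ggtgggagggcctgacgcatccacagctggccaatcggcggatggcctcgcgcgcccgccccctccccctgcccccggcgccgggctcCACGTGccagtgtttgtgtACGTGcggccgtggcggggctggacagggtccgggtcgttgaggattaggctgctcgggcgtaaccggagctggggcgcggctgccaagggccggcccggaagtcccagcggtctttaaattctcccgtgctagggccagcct
PDK3, chrX:24465036-24465285, plus strand: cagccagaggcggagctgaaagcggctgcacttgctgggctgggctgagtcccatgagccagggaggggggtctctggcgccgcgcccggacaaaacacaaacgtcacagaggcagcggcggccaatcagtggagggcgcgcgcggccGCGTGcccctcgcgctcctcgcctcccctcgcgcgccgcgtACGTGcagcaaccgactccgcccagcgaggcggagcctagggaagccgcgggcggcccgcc
LDHA, chr11:18394313-18394562, plus strand: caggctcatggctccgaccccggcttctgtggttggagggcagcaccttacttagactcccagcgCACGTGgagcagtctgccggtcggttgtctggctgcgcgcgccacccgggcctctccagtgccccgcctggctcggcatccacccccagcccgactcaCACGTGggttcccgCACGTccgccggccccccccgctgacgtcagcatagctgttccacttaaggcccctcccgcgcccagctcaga
ADM, which fell, has 1 match, at -101 from the gene start. ALDOC, ANKRD37 and PDK3, which rose, have 5, 3 and 2. LDHA, called with no compound, has as many matches as ALDOC, but not as many marked stretches. Each palindrome CACGTG gives a match on both strands, and LDHA holds 2 of them, ALDOC 1 and ANKRD37 1.

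FK228 and largazole, both depsipeptides, were given at the same dose and could be compared directly. Of the 35 genes, 1 was higher and 3 were lower with FK228, where 9.06% of all tested genes were called, 4.19% higher and 4.88% lower. The share of the 35 was 11.4%. ADM was lower with FK228 by 1.71-fold (-0.77 ± 0.084, n = 2, adjusted p = 0.00416), EGLN1 by 1.47-fold (-0.56 ± 0.089, adjusted p = 0.0136) and EGLN3 by 1.40-fold (-0.48 ± 0.10, adjusted p = 0.0299). HK2 on its brightest probe set was higher by 1.43-fold (0.52 ± 0.076, adjusted p = 0.0111), while on 222305_at it read -0.12 and was not called. Its probe set 239410_at read -0.13, given with no test because it passed the filter only through its vehicle arrays. HIF1A, at -0.40 ± 0.13, was not called (adjusted p = 0.102; 95% confidence interval -0.70 to -0.10), but was under 3 alternatives (adjusted p = 0.0276 to 0.0458).

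ADM kept this call with every array left out, though its highest adjusted p over the alternatives lay only just under the threshold. The calls of EGLN1 and EGLN3 ended without any 1 of the 4 FK228 and largazole arrays (adjusted p = 0.0574 to 0.111 and 0.07 to 0.143), and that of HK2 without largazole replicate 1 (0.0844), largazole replicate 2 (0.0768) or FK228 replicate 1 (0.0547). On the other EGLN1 probe sets FK228 was also lower and called (-0.39 and -0.50), whereas on the other EGLN3 probe set it was not called (-0.20), nor with both averaged (-0.34, adjusted p = 0.111). With 31 genes the difference was not called, which does not show that the compounds act alike on them: their 95% confidence intervals together ran from -0.70 to 0.50, with a median half-width of 0.21 over the 35 genes. Among genes that rose with each compound, the interval was -0.19 to 0.21 for HK1, -0.056 to 0.38 for PDK3 and -0.056 to 0.38 for ANKRD37, and ALDOC was at 0.23 ± 0.094 (0.0095 to 0.45, adjusted p = 0.179). SAHA was given at another dose, and its values stand beside the others with no test between compounds.

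**Figure D4:**
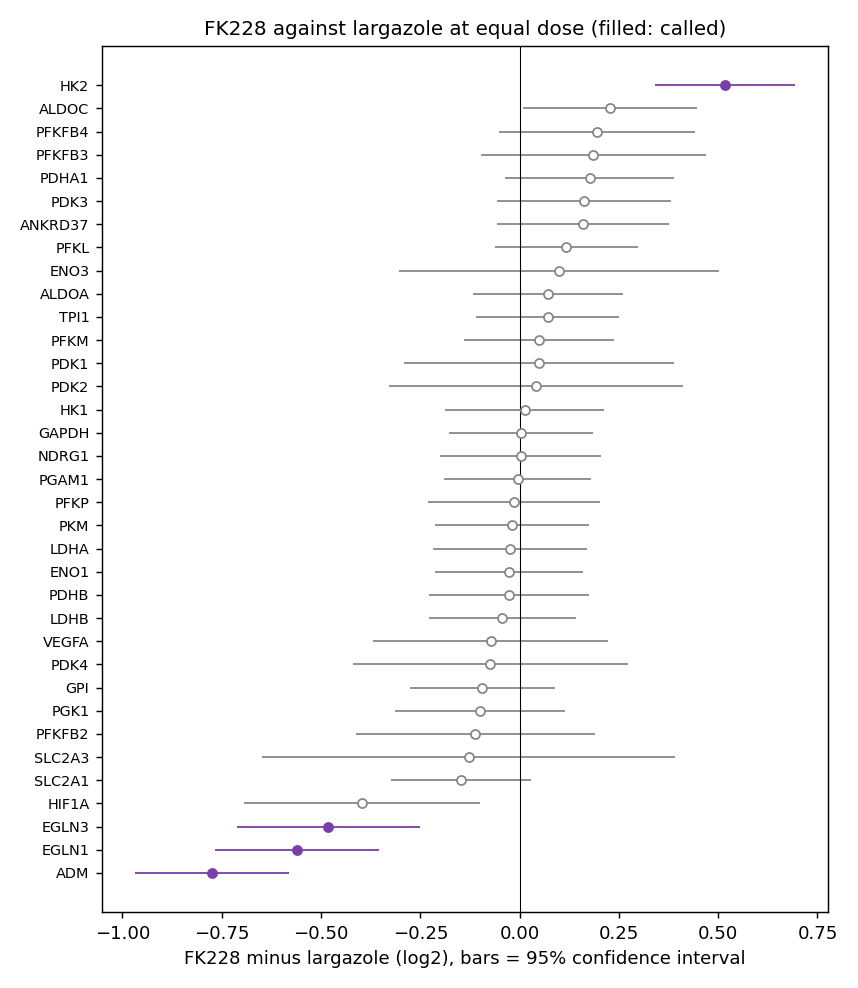
Difference between FK228 and largazole at 20 nM (log2, x axis, bars are 95% confidence intervals) for the 35 genes (y axis), 2 arrays a group. Filled points were called: HK2 is higher with FK228, and ADM, EGLN1 and EGLN3 are lower; of the other 31 intervals, those of ALDOC and HIF1A leave out 0.

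Other genes of the same pathways came from lists of 75 genes, of which 58 were tested. With largazole 22 rose and 8 fell, with SAHA 20 rose and 11 fell, and with FK228 21 rose and 13 fell, or 51.7%, 53.4% and 58.6% called. The shares over all genes, 45.2%, 47.4% and 52.8%, were each somewhat lower, a gap that was not tested. Between FK228 and largazole, 0 were higher and 6 lower (limma), or 10.3% called beside 9.06% of all genes. At an unadjusted p under 0.05 these counts were 2 and 9. In the list of 27 tested HIF regulators and targets, 11 rose and 5 fell with largazole, 10 and 8 with SAHA and 8 and 8 with FK228 (medians -0.010, -0.014 and -0.0041), so its members did not move one way. The shares called were 59.3%, 66.7% and 59.3%, each above the share over all genes. Among 14 tested glycolysis and linked sugar enzymes, 5 rose and 1 fell with largazole, 3 and 0 with SAHA and 6 and 0 with FK228, or 42.9%, 21.4% and 42.9% called, each under the share over all genes. At an unadjusted p under 0.05, 0 fell with SAHA and 1 with FK228 (limma). Among 9 tested pyruvate handling genes, 3 rose and 1 fell with largazole, 4 and 2 with SAHA and 3 and 3 with FK228. The shares called were 44.4%, 66.7% and 66.7%, the largazole share just under that over all genes and the others above it. Among 8 tested sugar and monocarboxylate transporters, 3 rose and 1 fell with largazole, 3 and 1 with SAHA and 4 and 2 with FK228. That was 50%, 50% and 75% called, each above the share over all genes. In lists this short a single call moves the share by a large step.

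EPAS1 (HIF-2 alpha), the other main oxygen-regulated HIF subunit, measured 9.07 and 9.28 with vehicle, 10.60 and 10.75 with largazole, 10.65 and 10.73 with SAHA and 10.50 and 10.74 with FK228. All 6 treated arrays stood together above vehicle, higher by 1.50 ± 0.12, 1.51 ± 0.12 and 1.45 ± 0.12 with largazole, SAHA and FK228 (adjusted p at most 6.63e-05), while HIF1A on the same arrays was called only with FK228, and lower. BHLHE40, a hypoxia-inducible repressor, measured 8.69 and 8.63 with vehicle, 7.32 and 7.40 with largazole, 6.70 and 6.98 with SAHA and 5.90 and 6.05 with FK228. Its groups were separate in the same order as those of ADM, at -1.30 ± 0.11, -1.82 ± 0.11 and -2.68 ± 0.11, and it was lower with FK228 than with largazole (-1.38 ± 0.11, adjusted p = 0.00197). ANGPTL4, a lipase inhibitor induced by hypoxia, rose by 1.27, 1.32 and 1.48. HILPDA (-0.60, -0.63 and -0.62), a lipid droplet protein, the mitochondrial kinase AK4 (-0.56, -0.69 and -0.80) and ARNT2, a HIF dimer partner (-0.57, -0.75 and -0.62), fell with each compound.

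CITED2, which competes with HIF for its coactivator, measured 7.77 and 7.56 with vehicle, 8.84 and 8.59 with largazole, 8.51 and 8.57 with SAHA and 8.01 and 7.998 with FK228. It rose by 1.05 with largazole, 0.87 with SAHA and 0.34 with FK228, and was lower with FK228 than with largazole (-0.72 ± 0.11, adjusted p = 0.0129). The FK228 call of CITED2 ended without vehicle replicate 2 (adjusted p = 0.205), FK228 replicate 1 (0.112), FK228 replicate 2 (0.104) or either SAHA array (0.053), and the call between the compounds without largazole replicate 1 (0.0957), FK228 replicate 1 (0.0561) or FK228 replicate 2 (0.057). With its probe sets averaged the difference between the compounds was -0.30 and not called (adjusted p = 0.0857).

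**Figure D5:**
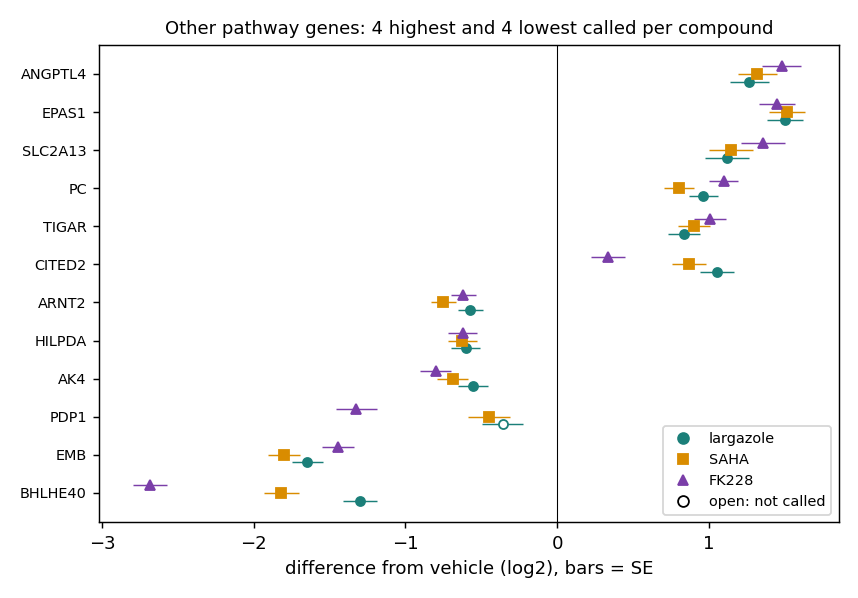
Difference from vehicle (log2, x axis, bars are the SE) of 12 other pathway genes (y axis), the 4 highest and 4 lowest called per compound, with largazole, SAHA and FK228, 2 arrays a group; open symbols were not called. BHLHE40 with FK228 lies lowest at -2.68, and EPAS1 and ANGPTL4 lie highest.

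Around pyruvate, PDP1, the phosphatase that reverses the PDK step, measured 12.86 and 12.78 with vehicle, 12.58 and 12.34 with largazole, 12.46 and 12.28 with SAHA and 11.65 and 11.34 with FK228. The FK228 arrays stood below all others, at -1.32 ± 0.14 from vehicle (adjusted p = 0.000127) and -0.97 ± 0.14 from largazole (adjusted p = 0.00996). SAHA was at -0.45 (adjusted p = 0.0289), a call that ended without SAHA replicate 2 (0.142), vehicle replicate 1 (0.122) or vehicle replicate 2 (0.074). Largazole was at -0.36 and not called (adjusted p = 0.07). It was called without either FK228 array, which enter that comparison only through the shared estimate of the spread. The difference between FK228 and largazole lost its call without largazole replicate 1. PC, pyruvate carboxylase, which feeds pyruvate into the citric acid cycle, rose by 0.96, 0.80 and 1.10 with largazole, SAHA and FK228. TIGAR, a phosphatase that lowers fructose 2,6-bisphosphate, rose by 0.84, 0.90 and 1.00.

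At the membrane, EMB, embigin, an ancillary protein of monocarboxylate transporters, measured 8.06 and 7.997 with vehicle, 6.45 and 6.32 with largazole, 6.22 and 6.23 with SAHA and 6.46 and 6.71 with FK228. Its vehicle arrays were far above the rest, and it fell by 3.13-fold, 3.48-fold and 2.72-fold with largazole, SAHA and FK228 (-1.65 ± 0.11, -1.80 ± 0.11 and -1.44 ± 0.11). SLC2A13, a myo-inositol transporter of the glucose transporter family, rose by 1.12, 1.15 and 1.36. SLC2A8 (0.69, 0.60 and 0.94) and SLC2A11 (0.65, 0.59 and 0.53), other members of that family, rose with each compound and were chosen for mention after their values were seen.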

How the data were processed

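HCT116 cultures were profiled on Affymetrix U133 2.0 arrays, 2 per group. The authors deposited 1 log2 level per probe set and array. Per the submitters' processing notes, affy, RMA and limma were used, with no version, role or order. The array annotation gave 1 gene symbol for 41091 of 54613 probe sets, several for 1801 and none for 11721; 41037 matched the RefSeq table by gene ID and 0 symbols changed. The 28985 probe sets whose second-highest value reached 4.49 were fitted over all 8 arrays with limma 3.58.1 in R 4.3.3 (1 coefficient per group, eBayes, 4 residual and 3.69 prior degrees of freedom). Probe sets stand for genes by highest mean over the arrays. Array number limits precision: the 95% confidence interval of a difference had a median half-width of 0.26 over all tested probe sets. Figures used Python 3.11.15, pandas 2.3.3 and matplotlib 3.10.9.

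Values on every array are printed for genes called with a compound whose arrays lay outside vehicle and for those called between FK228 and largazole. They are also printed for 10 fixed genes, of which CA9 was not analysed, and beyond these rules for SLC2A3, ALDOA and PDK1. Other pathway genes were named by rule as up to 4 highest and 4 lowest called per compound, several of them without values on each array. Members, lists and tests were chosen with earlier results of these data known. Results were recomputed without the filter, with the filter raised to 6.87, with a robust intensity-trended prior, a replicate block, array weights, equal ribosomal protein medians, quantile normalization, other probe set choices, only the 4 arrays compared, and each array left out. Protein sequences were not used here.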

Additional observations from a re-analysis of the deposited data

How the results depend on the processing

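Counts of called genes stayed within 1.5 times of the reported count under most alternatives. The rises with largazole numbered 11 in place of 7 with its probe sets averaged per gene. The falls with SAHA numbered 2 in place of 4 without probe sets named _x_at or _s_at, which left 19 of the 35 genes to test. The falls with FK228 numbered 3 in place of 5 with only the 4 arrays compared. The 1 gene higher with FK228 than with largazole, HK2, became 0 with all probe sets averaged. That average takes in a probe set that passed the filter only through its vehicle arrays. With 1 array left out, rises and falls numbered 5 to 7 and 1 to 4 with largazole, 5 to 7 and 2 to 6 with SAHA, 7 to 10 and 2 to 5 with FK228, and 0 to 1 and 1 to 3 between FK228 and largazole; the array left alone in its group is taken to have the spread of the rest.

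Averaging its probe sets, which oppose each other, brought HK2 to -0.69 with largazole, -0.56 with SAHA and -0.60 with FK228. That average takes in 239410_at, which passed the filter only through its vehicle arrays, so it is given with no test. Without _x_at and _s_at probe sets TPI1 read -0.021 with FK228. Calls held with each compound under all 18 alternatives run for HK1, ALDOC, PDK3 and ADM, and under the 17 run for EGLN3, whose probe sets are all _s_at. Without the filter, calls ended for PFKL with largazole, TPI1, ANKRD37 and PDP1 with SAHA, GPI, PFKFB2, PFKFB3, TPI1, NDRG1 and CITED2 with FK228, and EGLN3 between FK228 and largazole. The replicate numbers are shared by 2 arrays a group and nothing says that they pair cultures; deviations of same-numbered arrays correlated at 0.13 to 0.27 between groups. With a replicate block, the paired fit called 9 rises and 4 falls with largazole, 10 and 4 with SAHA, 12 and 5 with FK228, and 1 and 4 between FK228 and largazole. That fit added calls for SLC2A1 (adjusted p = 0.0368), NDRG1 (0.0483) and PDP1 (0.0126) with largazole, PKM (0.0334) and PDHA1 (0.0285) with SAHA, and HIF1A (0.0409) between FK228 and largazole, and ended none of the calls described.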
